A study of Homo sapiens with 12 samples.

Results

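NRF2, the transcription factor encoded by NFE2L2, its inhibitor KEAP1 and 8 genes usually listed as NRF2 targets were followed in RNA from the human kidney cancer cell line Caki-1 and from a cabozantinib-resistant derivative. The 10 genes were taken by symbol from the count and TPM tables, which hold 20114 gene symbols, and all 10 passed the filter on low counts that left 12792 genes for testing. Cabozantinib inhibits several receptor tyrosine kinases, MET and VEGF receptors among them. The parental cells were unmodified Caki-1 cells in RPMI 1640 with heat-inactivated fetal bovine serum, penicillin and streptomycin. The resistant cells were grown from them in McCoy's 5A medium with fetal bovine serum, streptomycin and 5 µM cabozantinib, raised over 2 months to 20 µM, and then stayed in 10 µM of the drug. Drug, medium and selection therefore differ together between the lines and cannot be told apart. The labels do not say whether the resistant line is 1 clone, and there are 2 RNA libraries per line. The labels do not give separate cultures for the replicates, and the p-values then measure only the spread between these libraries, which may be technical.

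NRF2 belongs to the cap'n'collar family of basic leucine zipper proteins. In unstressed cells KEAP1, an adaptor of the CUL3 ubiquitin ligase, binds NRF2 and directs it to degradation. When reactive electrophiles or oxidants modify cysteines of KEAP1, NRF2 accumulates, pairs with a small MAF protein and binds antioxidant response elements near genes of glutathione, thioredoxin, quinone and heme metabolism. The pathway is thus set largely at the protein level, which RNA does not show. In kidney cancer it is known above all from papillary tumours and from tumours that carry mutations in the pathway.

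The letters of the antioxidant response element core were searched in RefSeq promoter windows (GRCh38.p14), which run from 250 bases before to 50 after each gene's start, because NRF2 binds this element. Windows were found for 9 of the 10 genes, 12 windows in all, and HMOX1 had no entry. The core was written TGACNNNGC and read on both strands. It lay in 5 of the 12 windows, which belonged to GCLM, KEAP1, PIR and TXNRD1, and in 13.3% of all 35116 windows. The letters TGANTCA, bound by AP-1 factors and able to overlap the core, lay in the PIR and OSGIN1 windows and in 7.71% of all windows. In the stretches below, given 5′ to 3′ on the gene's strand with 10 flanking bases on each side, the matched letters are in capitals.
PIR, core, chrX:15493289-15493317, minus strand, first matched base 26 bases after the start: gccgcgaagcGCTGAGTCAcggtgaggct
GCLM, core, chr1:93909446-93909474, minus strand, 34 bases before the start: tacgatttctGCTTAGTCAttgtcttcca
KEAP1, core, chr19:10502784-10502812, minus strand, 31 bases before one of its 2 starts: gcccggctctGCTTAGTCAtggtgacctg
TXNRD1, core, chr12:104215670-104215698, plus strand, 99 bases before the upstream of its 2 starts: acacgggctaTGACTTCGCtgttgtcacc
TXNRD1, core, chr12:104286920-104286948, plus strand, 102 bases before the downstream start: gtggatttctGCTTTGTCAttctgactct
OSGIN1, AP-1 letters, chr16:83953133-83953159, plus strand, 97 bases before the start: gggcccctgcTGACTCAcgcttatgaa

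In PIR the AP-1 letters lie inside the core match. GCLM and KEAP1 hold the same 9 letters. KEAP1 and TXNRD1 each hold 1 further core match in these windows. A match describes letters only, and no binding was measured. The windows are short, so a gene without a match may hold the element farther from its start. The histone acetylation peaks were not used, since their coordinates fit hg19 and run past the end of chromosome 1 in GRCh38, the build of the gene table used here.

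The RNA libraries held 10584083 to 14664723 estimated counts, and the lowest count of any of the 10 genes in any library was 169. The parental libraries were close (median absolute log2 difference per gene 0.10), and the resistant libraries differed more (0.34). Of 8 renal and epithelial markers 6 were measured well enough to test, among them PAX8, CDH6, KRT8, KRT18 and VIM. Of the 6, 0 were called with edgeR or DESeq2. At an unadjusted edgeR p under 0.05, 2 were lower and 0 higher, where 13.6% and 13.4% of all genes were. PAX8 and VIM lay below both parental libraries in both resistant libraries, without passing (log2 fold changes -0.53 and -0.48, edgeR adjusted p = 0.104 and 0.11). PAX2 had 0 counts in all 4 libraries. Of 13 markers of blood, endothelial, stromal and liver cells, 12 matched the tables and 4 could be tested, while CD3E, HBB and CDH5 had 0 counts throughout. Their summed level was 21.2 and 24.4 TPM in the parental and 6.57 and 7.12 TPM in the resistant libraries. With edgeR the matrix gene DCN was the 1 of the 4 called, as lower. DESeq2 called 3 of the 4 lower and 0 higher (5.76% and 4.76% of all genes). At an unadjusted edgeR p under 0.05, 3 were lower and 1 higher (13.6% and 13.4% of all genes). ALB, the liver marker, lay the other way at 0.584 and 0.291 CPM in parental and 1.75 and 1.32 in resistant libraries, without passing. The part of these markers in the results below was not tested.

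Levels were set side by side per gene length, as the deposited TPM. NQO1, a quinone reductase, stood highest. It had 456 and 475 TPM in parental and 702 and 397 in resistant libraries, at or above 97.9% or more of the genes listed above 0 in each library. TXNRD1, the cytosolic thioredoxin reductase, came next by the 4-library mean, with 290 and 261 TPM in parental and 269 and 102 in resistant libraries, though HMOX1 at 106 TPM lay just above it in resistant replicate 2. HMOX1, KEAP1, NFE2L2, PIR, SRXN1 and OSGIN1 followed, with 4-library means from 110 to 31.6 TPM. The glutamate-cysteine ligase subunits had the lowest 4-library means, GCLC at 14.9 and GCLM at 9.61 TPM. In the parental line OSGIN1, at 15.3 and 12.4 TPM, lay level with GCLC, at 13.4 and 12.9. KEAP1 and NFE2L2, adjacent in this order, stood in the opposite order in the 2 lines. The parental libraries had more NFE2L2 than KEAP1 mRNA (TPM ratios of 1.16 and 1.25), and the resistant libraries had less (0.751 and 0.661). No test was made of these ratios.

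**Figure D1:**
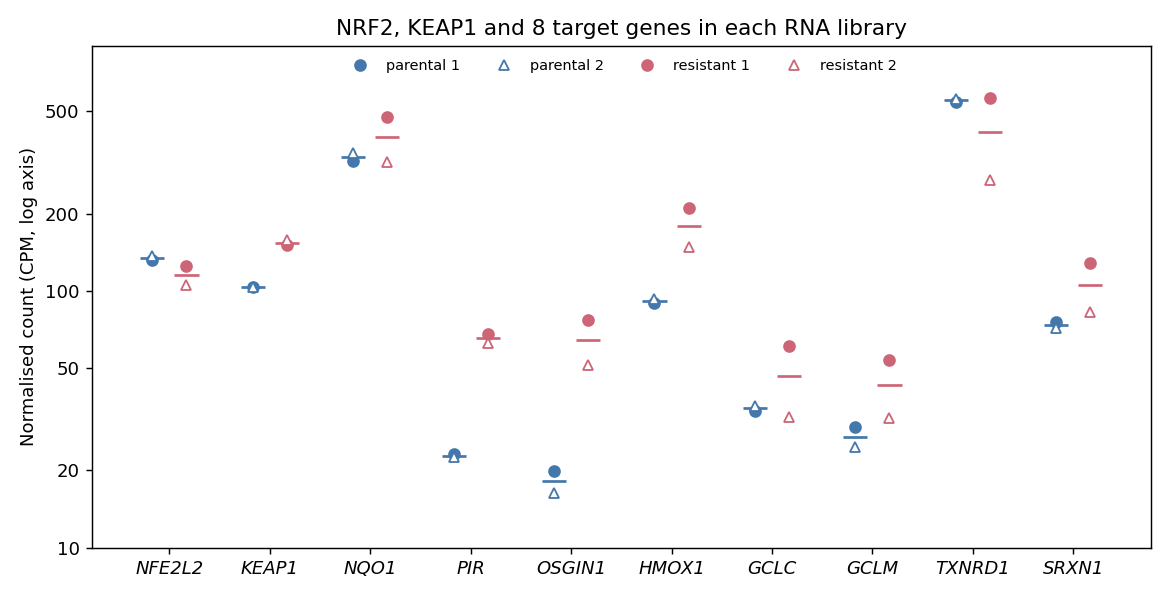
Normalised counts (CPM, log axis) of NFE2L2, KEAP1 and 8 target genes in the parental (blue) and resistant (red) libraries. Circles are replicate 1, open triangles replicate 2 and short lines the mean of each pair. PIR lies at 22.5 to 23.1 in the parental and 62.8 to 68.0 in the resistant libraries, and in TXNRD1 the resistant libraries lie far apart, at 563 and 271.

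The first question was whether mRNA of these genes differed between the lines. Of the 10 genes, 3 rose in the resistant line, OSGIN1, PIR and HMOX1, and 0 fell. The quasi-likelihood test of edgeR, adjusted by Benjamini-Hochberg and read at 0.05, called 2.96% of all 12792 tested genes higher and 3.41% lower. At an unadjusted p under 0.05, 5 of the 10 genes were higher and 0 lower, where 13.4% and 13.6% of all genes were. DESeq2 called the same counts as edgeR, 3 higher and 0 lower, against 4.76% and 5.76% of all genes. The median log2 fold change over the 10 genes was 0.55, beside 0.02 over all tested genes. By CPM, both resistant libraries lay above both parental ones in 6 of the 10 genes and below them in 1, where 30.9% and 29.7% of all tested genes did so. By TPM the lines overlapped in NFE2L2, GCLM and SRXN1, which are among these genes. When counts were scaled by library totals, 4 of the 10 were higher, KEAP1 among them, and all calls split into 531 higher (4.15%) and 373 lower (2.92%) in place of 379 and 436. In these bulk samples fewer cells that express a gene and less RNA per cell cannot be told apart.

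Neither regulator passed the test. NFE2L2 stood at 132 and 136 CPM, the normalised read count, in the parental libraries and at 125 and 106 in the resistant libraries. The resistant libraries lay below the parental ones by CPM, but the difference did not pass (log2 fold change -0.21 ± 0.15 (SE), 95% interval -0.58 to 0.15, edgeR adjusted p = 0.403). By TPM the groups overlapped, at 67.95 and 69.51 in the parental and 68.42 and 50.64 in the resistant libraries. KEAP1 stood at 104 and 104 CPM in the parental and 151 and 157 in the resistant libraries. The groups did not overlap and each pair was tight, yet the adjusted p missed the threshold (log2 fold change 0.57 ± 0.13, 95% interval 0.24 to 0.90, edgeR adjusted p = 0.0644). KEAP1 passed with library totals (adjusted p = 0.0417), with sample quality weights (0.0238) and after correction for effective length (0.016). In the other alternatives that kept all libraries it did not pass, up to 0.146 with limma-trend on unfiltered TPM. Its log2 fold change was 0.60 without resistant replicate 1 and 0.53 without replicate 2. In such fits the single resistant library left is taken to vary as the parental pair does. NFE2L2 passed in no alternative that kept all libraries. Its log2 fold change was -0.34 without resistant replicate 1 and -0.11 without replicate 2.

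Pirin and OSGIN1 carried the clearest rises. PIR encodes pirin, an iron-binding nuclear protein of the cupin family, and stood at 23.1 and 22.5 CPM in the parental and 68.0 and 62.8 in the resistant libraries. Both resistant libraries were far above the parental pair and close to each other. PIR rose 2.87-fold between the means (log2 fold change 1.52 ± 0.15, 95% interval 1.15 to 1.90, edgeR adjusted p = 0.00895). OSGIN1, an oxidative stress-induced growth inhibitor, stood at 20.0 and 16.4 CPM in the parental and 76.7 and 51.7 in the resistant libraries. Its groups did not overlap either, though its resistant pair was wider. OSGIN1 rose 3.53-fold (log2 fold change 1.82 ± 0.24, 95% interval 1.22 to 2.42, edgeR adjusted p = 0.0167). Among alternatives that kept all libraries, PIR and OSGIN1 passed in all but 1. That was limma-trend on log2(TPM + 1) without a filter, where the adjusted p was 0.0612 and 0.110. Their log2 fold changes stayed positive when any 1 library was left out.

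NQO1, which reduces quinones to hydroquinones and is the pathway's usual reporter gene, had 319 and 344 CPM in the parental and 476 and 318 in the resistant libraries. Resistant replicate 1 was high and replicate 2 lay just below the parental pair, so the groups overlapped. Its log2 fold change of 0.26 ± 0.22 did not pass (95% interval -0.27 to 0.79, edgeR adjusted p = 0.477). Without resistant replicate 2 the log2 fold change of NQO1 was 0.51, and without replicate 1 it was -0.057.

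HMOX1, heme oxygenase 1, which opens the heme ring to biliverdin, iron and carbon monoxide, had 89.9 and 92.7 CPM in the parental and 210 and 149 in the resistant libraries. Both resistant libraries stood above the parental pair. HMOX1 rose 1.97-fold (log2 fold change 0.98 ± 0.20, 95% interval 0.49 to 1.46, edgeR adjusted p = 0.0448), close to the threshold. The call ended without parental replicate 1 (adjusted p = 0.30) or 2 (0.261), with limma-voom (0.0545), with a higher filter on low counts, set at 2 on the log2 CPM scale (0.0523), and with each fit on TPM (0.112 to 0.206). Its log2 fold change was 0.708 without resistant replicate 1 and 1.197 without replicate 2. In those fits the spread comes from the close parental pair, so they cannot show whether the call holds. Among alternatives that kept all libraries, the lowest adjusted p of HMOX1 was 0.000902, with DESeq2.

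**Figure D2:**
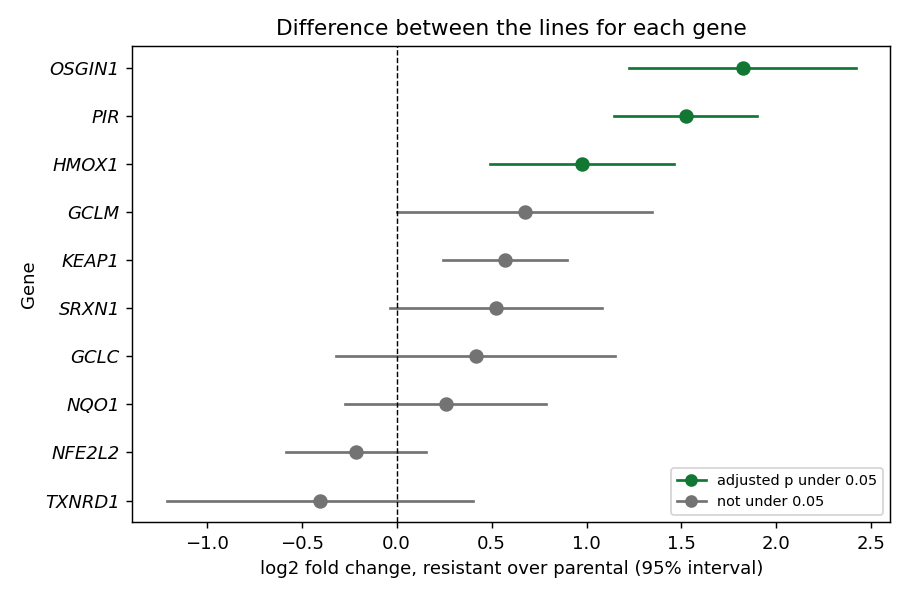
Log2 fold change of the resistant over the parental line (x axis) for each of the 10 genes (y axis), with 95% intervals from edgeR's quasi-likelihood fit. Green marks an adjusted p under 0.05. OSGIN1, PIR and HMOX1 are the 3 green genes, and the intervals of SRXN1, GCLC, NQO1, NFE2L2 and TXNRD1 span 0.

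The 2 subunits of glutamate-cysteine ligase, which makes the first bond of glutathione, were also uneven between the resistant libraries. GCLC, the catalytic subunit, had 34.2 and 35.7 CPM in the parental and 60.8 and 32.3 in the resistant libraries, and the groups overlapped. GCLM, the modifier subunit, had 29.4 and 24.6 CPM in the parental and 54.0 and 32.1 in the resistant libraries, with both resistant libraries higher. By TPM the GCLM groups overlapped, at 8.16 and 6.74 in the parental and 15.8 and 7.71 in the resistant libraries. Neither passed (GCLC log2 fold change 0.42 ± 0.30, 95% interval -0.32 to 1.15, edgeR adjusted p = 0.415; GCLM 0.67 ± 0.28, 0.00 to 1.35, adjusted p = 0.184). GCLM passed as higher after correction for effective length (adjusted p = 0.0278). Without resistant replicate 2 the log2 fold changes of GCLC and GCLM were 0.79 and 0.99, and without replicate 1 they were -0.11 and 0.25. Per gene length, GCLC mRNA exceeded GCLM mRNA 1.65-fold and 1.91-fold in the parental and 1.47-fold and 1.31-fold in the resistant libraries.

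TXNRD1, which keeps thioredoxin reduced, was the other member besides NFE2L2 with a negative fold change. It had 545 and 558 CPM in the parental and 563 and 271 in the resistant libraries. Resistant replicate 1 was at the parental level and replicate 2 far below it. The log2 fold change of -0.40 ± 0.33 did not pass (95% interval -1.21 to 0.40, edgeR adjusted p = 0.468). It was -1.02 when resistant replicate 1 was left out and 0.020 when replicate 2 was. SRXN1, sulfiredoxin, which repairs overoxidised peroxiredoxins, had 75.9 and 71.4 CPM in the parental and 129 and 83.1 in the resistant libraries. Both of its resistant libraries were higher by CPM, replicate 2 only slightly. By TPM the groups overlapped, at 39.9 and 37.1 in the parental and 71.5 and 37.9 in the resistant libraries. SRXN1 did not pass (log2 fold change 0.52 ± 0.23, 95% interval -0.03 to 1.08, edgeR adjusted p = 0.206). Its log2 fold change was 0.80 without resistant replicate 2 and 0.18 without replicate 1.

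The resistant libraries thus differed in how these genes stood. All 8 targets were higher in resistant replicate 1 than in replicate 2, from 1.08-fold in PIR to 2.08-fold in TXNRD1, where 50.3% of all tested genes were higher in replicate 1. NFE2L2 was 1.18-fold higher in replicate 1 as well, and KEAP1 was the exception at 0.958-fold. Relative to the parental mean, the median log2 difference of the 8 targets came to 0.90 in the first resistant library and 0.21 in the second, beside 0.01 and 0.00 over all tested genes. The ratio of replicate 1 to 2 in TXNRD1 was higher than in 97.2% of tested genes, that in GCLC higher than in 95.4%, and those in PIR and KEAP1 higher than in 58.2% and 44.2%. The counts of calls followed which library was kept. Without resistant replicate 2, 8 of the 10 genes were called higher and 0 lower, where 15.9% and 19.1% of all genes were. Without resistant replicate 1, 4 were higher and 2 lower, where 26.0% and 26.8% of all genes were. Without parental replicate 1, OSGIN1 and PIR were the 2 higher genes (1.17% of all genes higher, 2.05% lower), and without parental replicate 2 the same 2 genes were (1.07% and 2.00%).

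**Figure D3:**
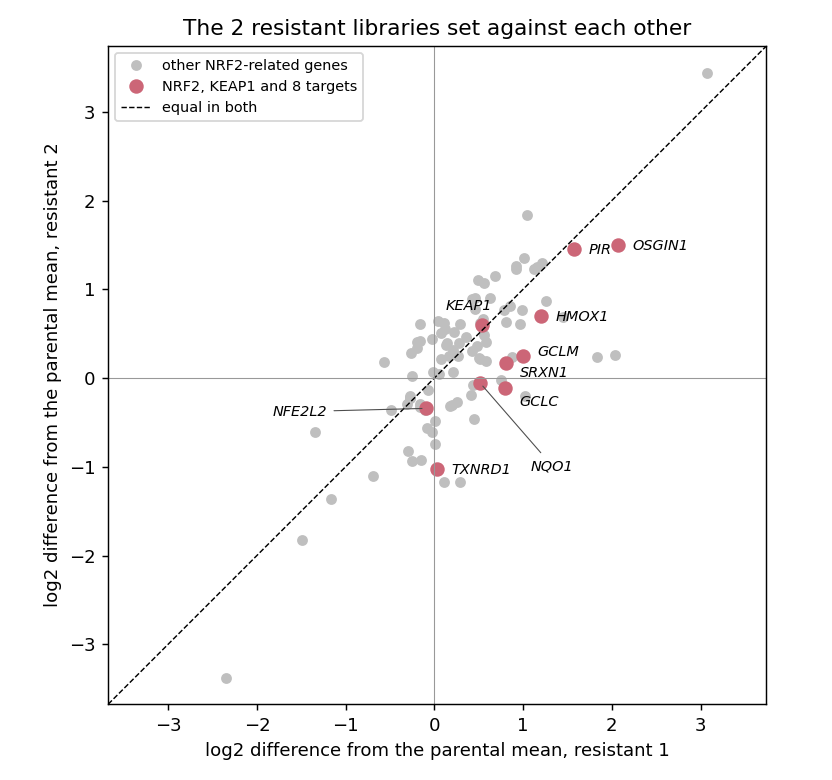
Log2 difference of resistant replicate 1 (x axis) and resistant replicate 2 (y axis) from the parental mean, for the 10 genes (red, named) and 90 other tested NRF2-related genes (grey). The dashed line marks equal values. The 8 targets lie to the right of it, TXNRD1 farthest at 0.03 and -1.03, and KEAP1 lies on the other side at 0.54 and 0.60.

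Gene length moved with the gap between the resistant libraries. Over 12534 genes with an effective length, the log2 ratio of resistant replicate 1 to 2 had a Spearman correlation of 0.59 and a Pearson correlation of 0.51 with log2 length, a description over genes that share these 2 libraries. The targets had a median length of 0.839 of the median gene, from 0.372 in NQO1 to 1.89 in GCLM. After the length trend was taken out, all 8 targets remained higher in resistant replicate 1, beside 49.6% of all genes, and their median log2 gap went from 0.60 to 0.71. KEAP1 went from -0.06 to -0.02. In that fit 5 of the 10 genes were called higher, GCLM, HMOX1, KEAP1, OSGIN1 and PIR, and 0 lower, where 7.71% and 9.77% of all genes were.

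Effective length itself, read as counts per TPM relative to the median gene of each library, depends on the isoforms to which RSEM assigned the reads. TXNRD1, whose transcripts start from several first exons, had relative lengths of 0.983 and 1.10 in the parental and 1.16 and 1.23 in the resistant libraries. The pairs did not overlap, and the parental libraries lay farther from each other than the higher of them lay from the lower resistant one. GCLC had 1.33 and 1.43 in the parental and 1.45 and 1.49 in the resistant libraries, and PIR 0.424 and 0.420 against 0.420 and 0.435. For NQO1 it lay between 0.366 and 0.376 in all 4 libraries.

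The surrounding pathway was read from 8 lists with 96 other genes, of which 90 were tested. In these lists 14 genes rose, 3 fell and 73 did not pass, where 2.96% and 3.41% of all tested genes were called higher and lower. The median log2 fold change was 0.27, beside 0.02 over all tested genes. In DESeq2 20 were higher and 4 lower (4.76% and 5.76% of all genes). Leaving out parental replicate 1 gave 3 and 1 (1.17% and 2.05% of all genes), and leaving out parental replicate 2 gave 2 and 2 (1.07% and 2.00%). Leaving out resistant replicate 1 gave 48 and 23 (26.0% and 26.8% of all genes), and leaving out resistant replicate 2 gave 43 and 14 (15.9% and 19.1%), so the lower counts lay near or under the share of all genes. Limma-trend on unfiltered TPM ended the calls of MAFK, GSTM4, GSTM3, EPHX1 and AKR1B10 described below (adjusted p from 0.0682 to 0.10).

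Among 16 tested genes of NRF2 control, 1 rose, 0 fell and 15 did not pass. MAFK, one of the small MAF partners with which NRF2 binds DNA, stood at 70.4 and 65.4 CPM in the parental and 148 and 160 in the resistant libraries (log2 fold change 1.18 ± 0.14, edgeR adjusted p = 0.0129). Its call ended without parental replicate 1 (adjusted p = 0.0865) or 2 (0.149). At an unadjusted p under 0.05, 3 were higher and 1 lower in this list (13.4% and 13.6% of all genes). With DESeq2, 2 were higher and 0 lower (4.76% and 5.76% of all genes). In glutathione supply and use, 1 of 18 genes rose, 1 fell and 16 did not pass (2.96% higher and 3.41% lower among all genes). The list had a median log2 fold change of 0.38. At an unadjusted edgeR p under 0.05 it had 9 higher and 1 lower (13.4% and 13.6% of all genes). With DESeq2 it had 5 higher and 1 lower (4.76% and 5.76% of all genes). The glutathione transferases GSTM4 and GSTM3 went opposite ways, GSTM4 from a mean of 12.8 to 29.2 CPM (adjusted p = 0.0304) and GSTM3 from 24.1 to 10.0 CPM (0.022). They lie in a cluster of close paralogs whose reads may be split between them, and both values are uncertain. GSTM4 was no longer called without parental replicate 1 (0.20) or 2 (0.0758), nor GSTM3 without parental replicate 1 (0.0771).

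Genes of the thioredoxin and peroxiredoxin system, leaving out TXNRD1 and SRXN1, had 1 of 12 higher, 0 lower and 11 that did not pass. At an unadjusted p under 0.05 the list had 2 higher and 1 lower (13.4% and 13.6% of all genes). With DESeq2 it had 1 higher and 1 lower (4.76% and 5.76% of all genes). PRDX2, a cytosolic peroxiredoxin, had 19.3 and 20.8 CPM in the parental and 41.6 and 71.9 in the resistant libraries (2.83-fold between the means, edgeR adjusted p = 0.0382). The call ended with limma-voom (0.0541) and with limma-trend on unfiltered TPM (0.0715). In this list 0 of 12 genes were higher in resistant replicate 1 than in replicate 2, and 5 of 12 after the length trend was taken out, where 50.3% and 49.6% of all genes were. Its median relative length was 0.51.

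NADPH, which the reductases NQO1 and TXNRD1 use, is supplied by 7 listed genes, of which 3 rose, 0 fell and 4 did not pass. IDH1, the cytosolic isocitrate dehydrogenase, had 55.1 and 57.2 CPM in the parental and 134 and 103 in the resistant libraries (log2 fold change 1.08 ± 0.18, edgeR adjusted p = 0.0277). Its resistant libraries stood clear of the parental ones, and its call ended with each fit on TPM (0.084 to 0.165). At an unadjusted p under 0.05 this list had 3 higher and 0 lower (13.4% and 13.6% of all genes). With DESeq2 the list also had 3 higher and 0 lower (4.76% and 5.76% of all genes). Leaving out either parental library ended its 3 calls, in fits that called fewer genes of any kind.

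Quinone, aldehyde and carbonyl detoxification, NQO1 left out, had 4 of 13 genes higher, 1 lower and 8 that did not pass. Among all genes 2.96% were called higher and 3.41% lower. The list had a median log2 fold change of 0.69. At an unadjusted edgeR p under 0.05 it had 6 higher and 1 lower (13.4% and 13.6% of all genes). With DESeq2 it had 5 higher and 1 lower (4.76% and 5.76% of all genes). EPHX1, the microsomal epoxide hydrolase, had 77.3 and 79.8 CPM in the parental and 182 and 192 in the resistant libraries (log2 fold change 1.25 ± 0.14, edgeR adjusted p = 0.0105). CBR1, a carbonyl reductase, went from a mean of 52.4 to 111 CPM (1.08 ± 0.17, adjusted p = 0.0243). AKR1B10 went the other way. It is an aldo-keto reductase often read as an NRF2 target, its reads may be split with paralogs, and it stood at 77.2 and 79.5 against 15.3 and 7.46 CPM (-2.77 ± 0.33, adjusted p = 0.0129). Leaving out either parental library ended the list's calls of higher genes and kept that of AKR1B10. Fewer genes of any kind were called in those fits than with all libraries.

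Heme and iron handling, HMOX1 left out, had 3 of 10 genes higher, 1 lower and 6 that did not pass. Among all genes 2.96% were called higher and 3.41% lower. At an unadjusted edgeR p under 0.05 the list had 4 higher and 1 lower (13.4% and 13.6% of all genes). With DESeq2 it had 3 higher and 1 lower (4.76% and 5.76% of all genes). BLVRA, which turns the product of heme oxygenase into bilirubin, had 39.5 and 37.8 CPM in the parental and 73.4 and 93.1 in the resistant libraries (log2 fold change 1.11 ± 0.18, edgeR adjusted p = 0.0247). SLC48A1, a heme transporter, had 77.2 and 79.2 against 135 and 133 CPM (0.78 ± 0.13, adjusted p = 0.0304). TFRC, the transferrin receptor, had 344 and 343 against 212 and 160 CPM (-0.88 ± 0.18, adjusted p = 0.0446), and its call ended with library totals (0.0608), with the higher filter on low counts (0.0522) and with each fit on TPM (0.0833 to 0.164). SLC48A1 also lost its call with each fit on TPM (0.0882 to 0.144). Leaving out either parental library ended all calls in this list, in fits that called fewer genes of any kind.

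Of 6 efflux pumps 0 were called with edgeR, 0 had an unadjusted p under 0.05 and 0 were called with DESeq2. All 6 were higher in resistant replicate 1 than in replicate 2, before and after the length trend was taken out, as were 50.3% and 49.6% of all genes. Their median relative length was 2.13, and their median log2 gap went from 0.74 to 0.35 when that trend was taken out. The most abundant were ABCC3, at 574 and 549 CPM in the parental and 645 and 455 in the resistant libraries, and ABCC1, at 188 and 176 against 179 and 120. Without resistant replicate 1, 4 of the 6 were lower (26.8% of all genes), and without resistant replicate 2, 4 were higher (15.9%). Superoxide dismutases, catalase and other antioxidant enzymes not usually counted as NRF2 targets had 1 of 8 higher, 0 lower and 7 that did not pass. At an unadjusted p under 0.05, 3 were higher and 1 lower (13.4% and 13.6% of all genes). With DESeq2, 1 was higher and 0 lower (4.76% and 5.76% of all genes). The 1 called with edgeR was GPX3, a secreted glutathione peroxidase, at 106 and 107 CPM in the parental and 895 and 1159 in the resistant libraries (log2 fold change 3.27 ± 0.19, edgeR adjusted p = 0.00198).

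**Figure D4:**
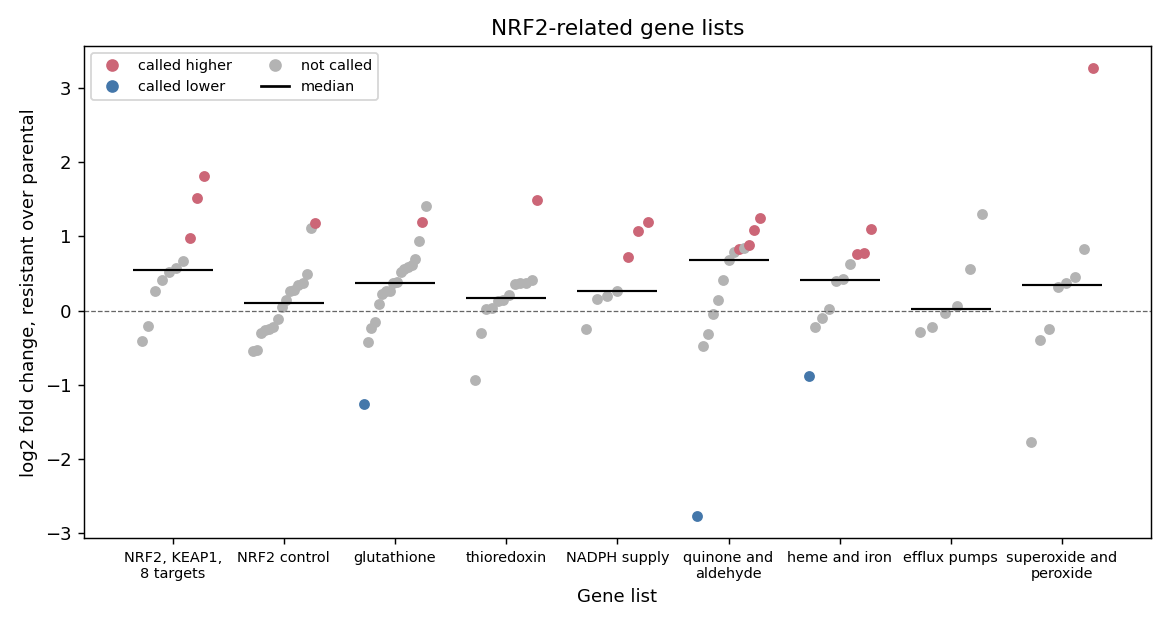
Log2 fold change of the resistant over the parental line (y axis) for the tested genes of the 10-gene group and of 8 related lists (x axis). Points are genes in ascending order, red if called higher, blue if called lower and grey otherwise, and black lines are medians. The medians run from 0.02 in efflux pumps to 0.69 in quinone and aldehyde detoxification, with 0.55 in the 10-gene group.

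Genes with the most similar pattern were sought for NFE2L2, NQO1 and PIR, by the Euclidean distance of centred log2 CPM over the 4 libraries, among 10964 other genes. For PIR they were IRF5, an interferon regulatory factor (distance 0.07), PSAT1, an aminotransferase of serine synthesis (0.09), and UGT1A1, which glucuronidates bilirubin and has exons in common with its relatives (0.13). IRF5 stood at 12.5 and 12.8 CPM in the parental and 36.4 and 33.9 in the resistant libraries. For NQO1 they were PHF20L1, CDKN2AIP and MTM1 (0.04 to 0.05), all with resistant replicate 1 above the other 3 libraries. For NFE2L2 they were NOMO2, SNX24 and FAS (0.02 to 0.03), and FAS, a death receptor, had 22.7 and 23.9 against 21.4 and 18.0 CPM. NOMO2 has near-identical copies and is uncertain. With 4 libraries many genes share a pattern, and these are descriptions.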

How the data were processed

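RNA was measured in 2 parental and 2 resistant libraries. The deposited tables give RSEM estimated counts, of which 3.16% were fractional and all were rounded, and TPM, per the file headers and values. The submitters' processing notes name STAR, RSEM, DESeq2 1.40.2, GRCh38 and hg19 without roles. Samples were grouped by title. Genes kept by filterByExpr were scaled by TMM and tested with edgeR 4.0.16 (R 4.3.3), line as the only term, Benjamini-Hochberg adjustment at 0.05. CPM are TMM-scaled. Standard errors are the fold change over the square root of F. A log2 difference from the parental mean has 0.1 CPM added. Effective length is counts per TPM where counts reach 20, and its lowess trend (span 0.3) was entered as offsets. The 28 date-like symbols stayed unnamed. The fits were also run on simulated counts with equal spread in both lines. In these data the resistant libraries differed more than the parental ones, so those runs do not show how the fits perform here. Alternatives used limma 3.58.1, DESeq2 1.42.0 and those named in the closing section. Promoters were searched with Python 3.11.15.

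The 10 genes and all lists were chosen with earlier results of these data known. Named were all 10 genes, and from each list up to 2 rises and 2 falls with the largest change among those called, or the 2 most abundant where none was called, and 3 genes nearest in pattern to NFE2L2, NQO1 and PIR among genes that reach 2 as mean log2 CPM. The 4 H3K27ac peak lists and the 4 DNA inputs were not analysed here. Of the genes this rule and the marker lists name, 2 are not reported here by name or value, though the counts of their lists include them.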

Additional observations from a re-analysis of the deposited data

How the results depend on the processing

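Leaving out 1 library at a time gave 141 to 3374 genes higher and 264 to 3479 lower over all genes, 2 to 8 of the 10 genes higher and 0 to 2 lower, and 2 to 48 of the pathway genes higher and 1 to 23 lower, where the single library left in a line is taken to vary as the other line does. Against 379 higher and 436 lower genes, the counts were 609 and 737 with DESeq2, 790 and 819 with sample quality weights, 243 and 282 with limma-trend on log2(TPM + 1), 217 and 243 with log2(TPM + 0.1), 41 and 98 on log2(TPM + 1) without a filter, 966 and 1225 after length correction, and 24 and 73 at a threshold of 0.01. Against 3 of the 10 genes higher, there were 0 on unfiltered TPM, 5 after length correction and 1 at 0.01. Against 14 pathway genes higher and 3 lower, there were 23 and 5 with quality weights, 3 and 0 on unfiltered TPM, 23 and 7 after length correction, and 1 and 0 at 0.01.

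A replicate block gave 860 genes higher and 1020 lower over all genes. It gave 21 pathway genes higher and 5 lower, and the same 3 of the 10 genes higher. The deviations of replicates with the same number did not correlate (r = -0.05 over 12792 genes). The parental libraries differed little from each other, so this could not show whether samples with the same number share a culture or batch.

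Log2 fold changes turned sign without resistant replicate 1 for NQO1 (-0.057, against 0.51 without replicate 2), GCLC (-0.11 against 0.79), PHF20L1 (-0.024 against 0.50), CDKN2AIP (-0.096 against 0.53) and MTM1 (-0.096 against 0.48). TXNRD1 turned without resistant replicate 2 (0.020, against -1.02 without replicate 1), and ABCC3 with library totals (0.057), length correction (0.15) and without resistant replicate 2 (0.19, against -0.30). The cause was not tested. Over 160 single-gene values of the 10 genes under 16 alternatives, 136 kept direction and side of the threshold, 12 newly passed, 9 no longer passed and 3 turned.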
